A study of Mus musculus with 7 samples.

Results

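Genes for 8 receptors first described on natural killer (NK) cells were examined in heart ventricles of mice that model myocarditis caused by immune checkpoint inhibitors (ICI). The genes were chosen by name, as 7 killer cell lectin-like receptor genes (Klrd1, Klrk1, Klrc1, Klrc2, Klrb1c, Klrg1 and Klre1) and Ncr1, and all 8 were found among 23393 genes of the table. The 4 control mice were Ctla4+/+;Pdcd1-/- and the 3 ICI-myocarditis mice were Ctla4+/-;Pdcd1-/-, so all 7 animals lacked Pdcd1 by label and the groups differed by 1 copy of Ctla4. All animals were untreated and 3 to 6 weeks old. RNA came from bulk tissue, labelled both as ventricle and as whole heart, and each library is 1 animal. The labels give neither sex nor litter, and whether the groups differ in these was not tested. The labels do not state from which line or strain the animals came.

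Killer lectin-like receptors sit on the surface of NK cells, and activated CD8 T cells take up several of them. CD94, the product of Klrd1, pairs with NKG2A (Klrc1), which inhibits the cell, or with NKG2C (Klrc2), which activates it, and both pairs bind the non-classical MHC class I molecule Qa-1. NKG2D (Klrk1) forms its own dimers, binds stress-induced ligands of the RAE-1, H60 and MULT1 kinds, and signals through the adaptors DAP10 and DAP12. NKp46, the product of Ncr1, is used in mice as a marker of NK cells and other innate lymphocytes and is scarce on conventional T cells.

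In brief, Klrd1, Klrk1, Klrc1 and Klre1 were higher in ICI-myocarditis hearts, by 4.15 to 5.37 on the log2 scale in limma's fit. On recovered reads, edgeR and DESeq2 gave smaller differences, from 3.00 for Klre1 to 4.58 for Klrd1. Both called Klrd1 and Klrk1. Neither called Klrc1 (adjusted p = 0.0851 in edgeR and 0.214 in DESeq2) or Klre1 (0.0943 in edgeR and 0.215 in DESeq2). With limma-voom on recovered reads the differences were not smaller throughout, at 4.45 for Klre1, 4.51 for Klrk1, 5.15 for Klrd1 and 5.48 for Klrc1. The differences of Klrc2, Klrb1c and Ncr1 did not pass the test over all 7 libraries, and Klrg1 was too low to be tested. Set against the T cell genes Cd3d, Cd3e and Cd3g, Ncr1, Klrb1c and Klrc2 were lower, as nearly all genes were, and no difference was called for Klrd1, Klrc1 and Klre1, while the call for Klrk1 depended on how its spread was estimated. Control 2 held more of every receptor transcript than any other control, and several calls depend on single libraries.

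By the GENCODE M21 annotation (GRCm38, the build named in the submitters' processing notes), 6 of the genes lie within one stretch of chromosome 6, the NK gene complex, and Klrg1 lies elsewhere on that chromosome. In order along it stand Klrb1c (chr6:128778485-128789215, minus strand), Klre1 (chr6:129577905-129585827, plus), Klrd1 (chr6:129591782-129598775, plus), Klrk1 (chr6:129610323-129623864, minus), Klrc2 (chr6:129647496-129660689, minus) and Klrc1 (chr6:129666015-129678973, minus). Klrg1 occupies chr6:122270596-122282882 on the minus strand, and Ncr1 chr7:4337724-4345164 on the plus strand. All are protein-coding, and which of their exons the authors counted is not given in the sources used here. Klrc1 and Klrc2 are close copies: 38.6% of the 50-base windows of Klrc1 transcripts also occur in another gene, nearly all in Klrc2, and 16.3% of those of Klrc2 are shared. For Klrb1c the shared part was 17.0%, mostly with the overlapping gene model Gm44511 on the same strand. Values of Klrc1, Klrc2 and Klrb1c are therefore uncertain to the extent that reads were split between copies. Klrd1, Klrk1, Klrg1 and Ncr1 shared no such window with another gene, and Klre1 shared 0.280%.

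RefSeq promoter windows of GRCm38.p6 (250 bases before to 50 after a start site) were found for 6 of the 8 genes, with 9 windows in all. No entry was found for Klrd1 and Klrg1. The string TGTGGT, the core that RUNX factors recognise, was found on either strand in 8 of the 9 windows and in all 6 genes. It was found in 16.8% of the 32851 windows of the whole table, and in 18.9% of its 27025 genes. The Klrc2 windows overlap each other, as do the Ncr1 windows, so the same matches recur among the 9. Of the 12 strings searched on both strands this one was singled out after its matches were seen. It overlaps the longer TGTGGTT, which 3 of the 6 genes and 6.09% of all genes held. The T-box strings GGTGTGA, AGGTGTGA and GGTGTGAA (4.60%, 1.48% and 0.925% of all genes), the ETS-like strings CAGGAAGT, ACAGGAAG, AGGAAGT and GGAAGTG (3.86%, 4.06%, 10.7% and 12.5%), the STAT-like TTCNNNGAA (9.55%) and TGACGTCA (2.03%) were in none of the 9 windows. CACGTG (8.09% of all genes) was in Klrc2 only. A match is a description of letters and was not tied to any factor here.
Windows of 2 genes that rose, Klrk1 and Klrc1, and of Ncr1, which did not pass, are shown for comparison, with TGTGGT or its reverse complement in capitals. They span chr6:129623815-129624114 (minus strand), chr6:129678924-129679223 (minus strand) and chr7:4337465-4337764 (plus strand).
Klrk1: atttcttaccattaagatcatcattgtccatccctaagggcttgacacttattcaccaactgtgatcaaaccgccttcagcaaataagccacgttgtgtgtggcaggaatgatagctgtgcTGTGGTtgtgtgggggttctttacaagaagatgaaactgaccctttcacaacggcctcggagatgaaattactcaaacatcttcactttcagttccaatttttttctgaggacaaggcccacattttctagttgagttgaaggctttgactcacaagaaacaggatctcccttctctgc
Klrc1: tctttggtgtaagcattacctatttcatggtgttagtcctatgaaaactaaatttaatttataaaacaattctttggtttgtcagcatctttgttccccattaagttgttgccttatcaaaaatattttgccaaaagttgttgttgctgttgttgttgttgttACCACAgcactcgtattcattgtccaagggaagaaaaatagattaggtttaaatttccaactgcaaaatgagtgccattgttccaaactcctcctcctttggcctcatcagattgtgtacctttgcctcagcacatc
Ncr1: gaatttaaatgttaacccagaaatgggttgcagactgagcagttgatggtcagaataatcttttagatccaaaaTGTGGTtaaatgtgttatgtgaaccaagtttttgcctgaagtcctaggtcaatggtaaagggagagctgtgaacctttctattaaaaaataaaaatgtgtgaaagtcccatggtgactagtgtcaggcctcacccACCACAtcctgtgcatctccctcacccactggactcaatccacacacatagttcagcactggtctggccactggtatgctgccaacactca
The string begins 129 bases before the start site in Klrk1, 87 bases before it in Klrc1, and 176 and 41 bases before it in Ncr1.

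Read totals recovered from the table ranged from 20931730 to 32567278 in controls and from 27948525 to 39037176 in ICI-myocarditis libraries. Normalized counts below are the deposited values, gene reads divided by a size factor of each library. Ctla4 had 29.2 to 113 normalized counts in controls and 251 to 373 in ICI-myocarditis, and Pdcd1 2.50 to 244 and 1096 to 1481. Which part of Pdcd1 the allele removes is not given in the sources used here, so these totals check neither genotype. The summed level of 7 cardiomyocyte genes was 1233639 in control 2, the lowest control, higher in the other controls (up to 2477353) and 742151 to 1292092 in ICI-myocarditis, and its part in the results was not tested. The atrial genes Myl7 and Sln stayed at or below 48.0 and 3.70. Nppa, an atrial gene that stressed ventricle also makes, rose by 3.60 (limma adjusted p = 0.00317). Control 2 stood apart from the other controls: the summed level of 12 T cell genes was 2235 normalized counts there, at most 432 in the other controls, and 8809 to 13934 in ICI-myocarditis. The summed level of 5 macrophage genes was 6294 in control 2, at most 5697 in the other controls and at least 14881 in ICI-myocarditis. In bulk tissue, fewer cells of a type and less RNA per cell cannot be told apart.

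Klrd1, which encodes the CD94 chain shared by the Qa-1 receptors, had 5.04, 60.4, 13.4 and 2.50 normalized counts in controls 1 to 4 and 726, 297 and 440 in ICI-myocarditis libraries 1 to 3. The lowest ICI-myocarditis library lay above the highest control, which was control 2. The mean rose from 20.3 ± 27.1 (SD, n = 4) to 488 ± 219 (SD, n = 3). The difference in mean log2(normalized count + 1), called the log2 fold change below, was 5.29 (SE 0.862, limma adjusted p = 0.00558). Klrd1 passed the threshold of 0.05 under each of 18 alternatives tried, with a log2 fold change of 4.56 in edgeR (adjusted p = 0.0123), 4.58 in DESeq2 (adjusted p = 0.000312) and 6.09 without control 2.

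Klrc1, for the inhibitory partner NKG2A, was listed at 0 in controls 1 and 4, at 5.58 in control 3 and at 64.1 in control 2. The ICI-myocarditis libraries held 211, 117 and 265 normalized counts. The groups did not overlap, but the control values spanned from no read to 52 reads. The log2 fold change was 5.37 (SE 1.31, limma adjusted p = 0.0245), and its size depends on the pseudocount because of the empty controls. The call was lost with edgeR on recovered reads (log2 fold change 3.48, adjusted p = 0.0851) and with DESeq2 (3.50, adjusted p = 0.214). It was also lost in limma's test without control 1 (adjusted p = 0.0687), control 3 (0.0602), ICI-myocarditis 1 (0.0677), ICI-myocarditis 2 (0.0541) or ICI-myocarditis 3 (0.0942).

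Klrc2, for the activating partner NKG2C, was scarce throughout. Controls held 0, 25.9, 1.12 and 1.25 normalized counts and ICI-myocarditis libraries 25.6, 11.6 and 22.9. Control 2 exceeded every ICI-myocarditis library, so the groups overlapped. The log2 fold change of 2.57 did not pass (SE 1.02, 95% interval 0.27 to 4.88, limma adjusted p = 0.127). Without control 2 it was 3.57 (limma adjusted p = 0.00269), and limma-voom with quality weights also called it (3.05, adjusted p = 0.0142). Of the reads assigned to Klrc1 and Klrc2 together, Klrc2 held 28.8% in control 2 (exact binomial 95% interval 18.8 to 40.6, 73 reads). The share was 10.8% (7.13 to 15.6), 8.99% (5.23 to 14.2) and 7.96% (5.43 to 11.2) in the ICI-myocarditis libraries. The other controls had at most 6 such reads and give no usable share. Intervals of this kind cover counting error only.

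Klrk1, which encodes the activating receptor NKG2D, had 14.1, 191, 17.9 and 13.8 normalized counts in controls and 638, 417 and 827 in ICI-myocarditis. Controls 1, 3 and 4 lay close together, control 2 was more than 10 times higher than each of them, and all ICI-myocarditis libraries were higher still. The mean rose from 59.2 ± 88.0 (SD, n = 4) to 627 ± 205 (SD, n = 3). The log2 fold change was 4.33 (SE 0.834, limma adjusted p = 0.0096). Klrk1 was 3.37 in edgeR (adjusted p = 0.0417), 3.40 in DESeq2 (adjusted p = 0.0131) and 5.23 without control 2 in limma's test. It passed in each of 18 alternatives, with a largest adjusted p of 0.0433 in limma's test without ICI-myocarditis 3.

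Klre1 encodes a receptor that pairs with the products of Klri1 and Klri2. It was listed at 0 in controls 1 and 4, at 6.70 in control 3 and at 29.6 in control 2, against 111, 65.9 and 44.3 normalized counts in ICI-myocarditis. The groups did not overlap. The log2 fold change was 4.15 (SE 1.14, limma adjusted p = 0.0387), the least secure of the 4 calls. It passed in 8 of 17 alternatives. It was lost with edgeR (3.00, adjusted p = 0.0943), with DESeq2 (3.01, adjusted p = 0.215) and in limma's test with scaling by library size (adjusted p = 0.0502). In limma's test it was also lost without control 1 (adjusted p = 0.0962), control 3 (0.0699), control 4 (0.0644), ICI-myocarditis 1 (0.112), ICI-myocarditis 2 (0.0977) or ICI-myocarditis 3 (0.0943). The partner genes Klri1 and Klri2 also rose, by 3.34 and 4.52 (limma adjusted p = 0.0390 and 0.0128).

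Klrb1c encodes an activating receptor of the NKR-P1 family that is widely used to stain NK and NKT cells. Its normalized counts were 8.07, 35.8, 7.82 and 2.50 in controls and 74.7, 42.0 and 24.5 in ICI-myocarditis. Control 2 lay above ICI-myocarditis 3, so the groups overlapped. The log2 fold change of 2.11 did not pass (SE 0.757, 95% interval 0.41 to 3.82, limma adjusted p = 0.0935). It was 2.74 without control 2 (limma adjusted p = 0.00935) and 2.43 with limma-voom (adjusted p = 0.00816).

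Klrg1, an inhibitory receptor for cadherins found on differentiated T and NK cells, was barely detected. Controls held 0, 4.93, 1.12 and 1.25 normalized counts and ICI-myocarditis libraries 11.3, 10.9 and 8.40, at most 15 reads in any library. The groups did not overlap, but the gene missed the filter of 10 normalized counts in 3 libraries and was not tested. With no filter its log2 fold change was 2.27 (SE 0.590, limma adjusted p = 0.0350).

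Ncr1 differed least. Its normalized counts were 6.05, 44.4, 22.3 and 5.0 in controls and 54.2, 24.6 and 18.3 in ICI-myocarditis. The ranges overlapped widely, and control 2 held more than ICI-myocarditis 2 and 3. Means were 19.4 ± 18.4 (SD, n = 4) and 32.4 ± 19.2 (SD, n = 3), and the log2 fold change was 1.05 (SE 0.755, 95% interval -0.65 to 2.75, limma adjusted p = 0.395). Ncr1 passed in 0 of 17 alternatives, which included edgeR (adjusted p = 0.581), DESeq2 (0.566) and limma without control 2 (log2 fold change 1.6, adjusted p = 0.105). The unadjusted p of limma's test on all libraries was 0.197.

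**Figure D1:**
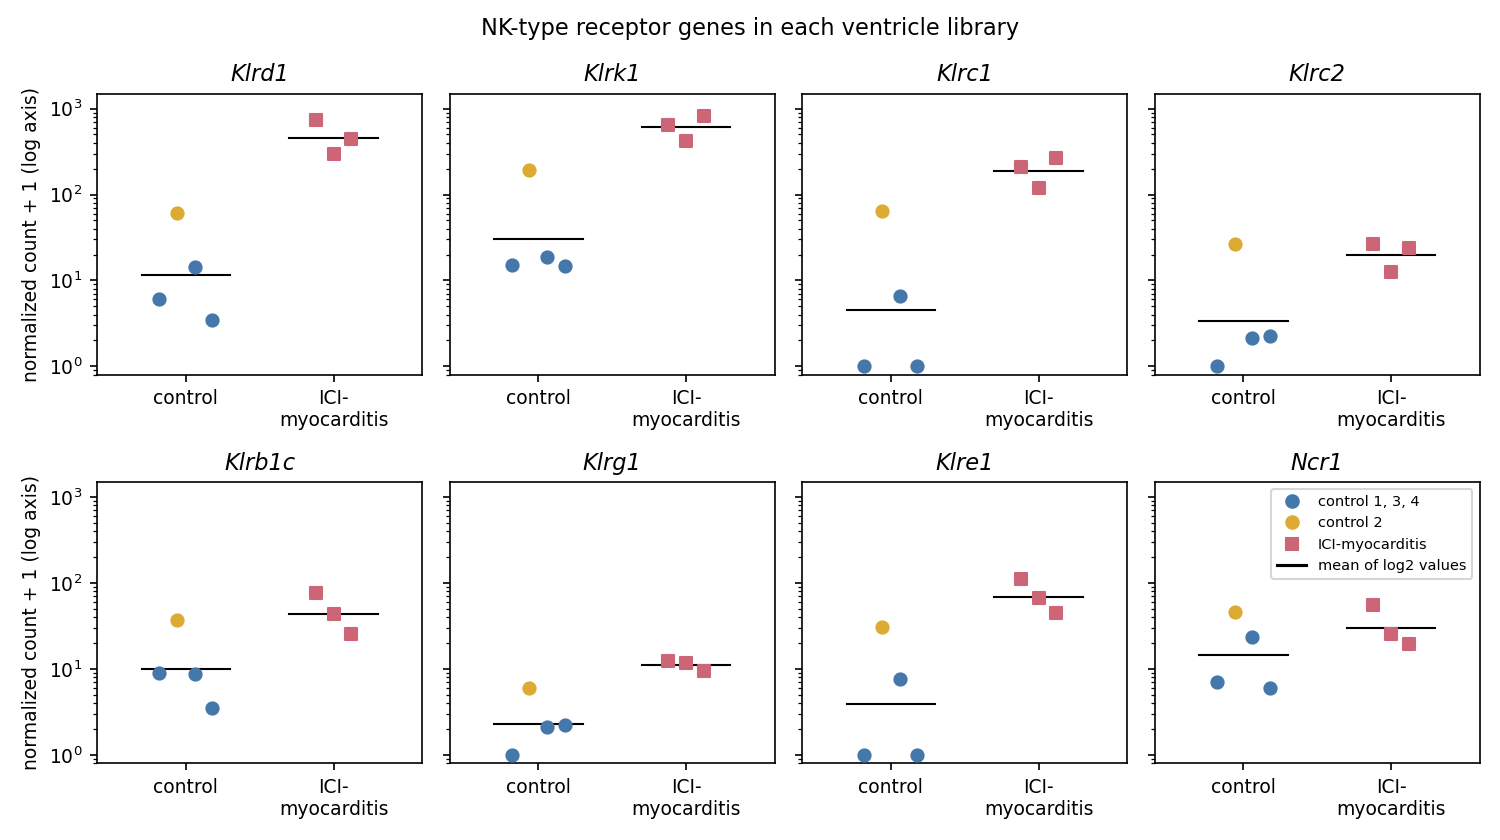
Normalized count + 1 (log axis) of each receptor gene in every library, with controls as circles (control 2 in yellow), ICI-myocarditis as squares and bars at the mean of log2 values. ICI-myocarditis libraries lie above all controls for Klrd1, Klrk1, Klrc1, Klrg1 and Klre1, and overlap controls for Klrc2, Klrb1c and Ncr1.

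Counted together, 4 of the 8 genes were called higher, 3 were tested and not called, and 1 was not tested. Of all 15236 genes tested, 11.7% were called higher and 4.0% lower. The ICI-myocarditis libraries all lay above all controls for 4 of the 7 tested receptor genes (and for the untested Klrg1), and for 17.3% of all genes tested. Each of the 7 tested genes reached 10 normalized counts in control 2 as well as in ICI-myocarditis libraries. Klrk1 did so in every control, Klrd1 and Ncr1 also in control 3, and the rest in no other control. All but Klrk1 thus needed ICI-myocarditis libraries to pass the filter of 10 in 3 libraries, so the share called is not independent of it. The median log2 fold change of the 7 was 4.15, beside -0.02 over all genes tested. Without control 2, 6 of the 7 were called higher, where 14.9% of all genes were. In the authors' deposited table, Klrd1 and Klrk1 had adjusted p-values of 0.000312 and 0.0136 and the other 6 genes were above 0.05, from 0.059 for Klrg1 to 0.564 for Ncr1. Across its genes with an adjusted p, 12.9% were higher and under 0.05 in the authors' deposited table.

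**Figure D2:**
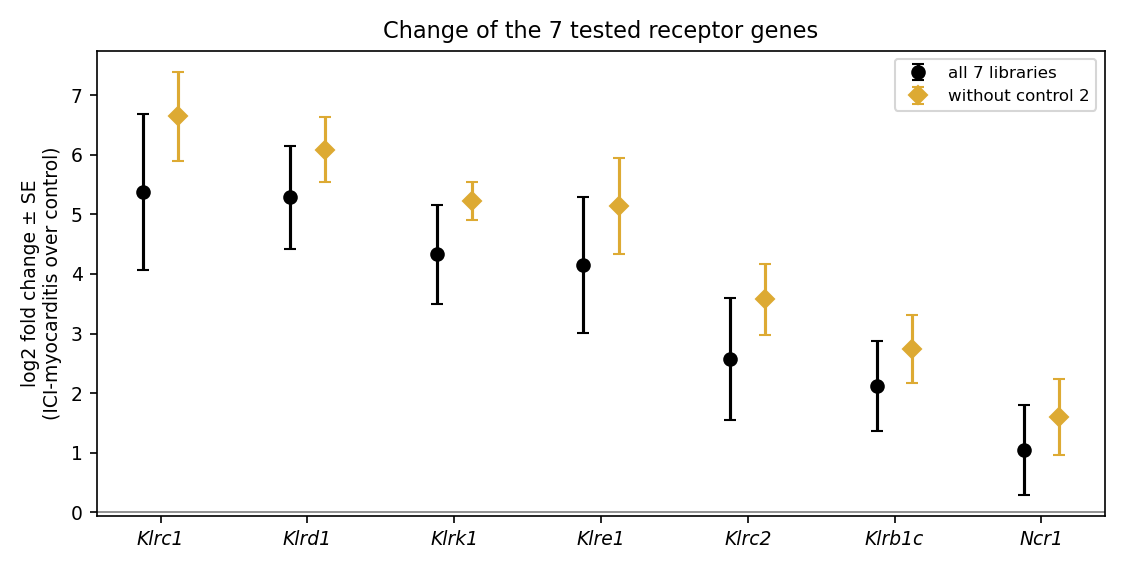
Log2 fold change ± SE (ICI-myocarditis over control) of the 7 tested receptor genes, with all libraries (black circles) and without control 2 (yellow diamonds). Estimates run from 5.37 for Klrc1 to 1.05 for Ncr1. Each is higher without control 2, which follows from control 2 being the highest control for each gene.

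The second comparison asked whether the receptor genes changed in step with T cells. For every gene tested, the library's mean log2 level of Cd3d, Cd3e and Cd3g, chains of the T cell receptor complex, was subtracted before limma's test. That mean was 3.58, 7.28, 4.02 and 3.34 in controls 1 to 4 and 9.86, 9.64 and 10.1 in ICI-myocarditis 1 to 3. Because the Cd3 genes rose so far, 97.1% of all genes tested were called lower relative to them, and 2.88% did not pass. In this fit limma took 1 spread-by-level trend for all genes, with 76180 degrees of freedom, so its standard errors and p-values do not rest on a gene's own libraries and ignore that all genes share the same Cd3 values. A fit with each gene's own spread (5 degrees of freedom), added after the data were seen, is therefore given beside it. It called 4 of the 7 receptor genes lower, and 97.8% of all genes tested.

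Of the 7 genes Ncr1 had the lowest estimate, though the intervals overlap. Its log2 difference from them was -0.76, -1.77, 0.52 and -0.76 in controls 1 to 4 and -4.07, -4.96 and -5.87 in ICI-myocarditis. The groups were fully apart, and control 2 lay with the controls on this scale. The change was -4.28 (SE 1.06, limma adjusted p = 7.4e-05). Klrb1c stood at -0.40, -2.08, -0.88 and -1.53 in controls and at -3.62, -4.22 and -5.47 in ICI-myocarditis, a change of -3.21 (SE 1.06, limma adjusted p = 0.00264). With their own spread both had an adjusted p of 0.0107 in limma's linear model, and both passed in all 14 alternatives tried. Klrc2 changed by -2.75 (SE 1.06, limma adjusted p = 0.00959), from between -3.58 and -2.17 in controls to between -5.99 and -5.13. With its own spread Klrc2 also passed (limma adjusted p = 0.0107), and it missed the threshold in limma's test without ICI-myocarditis 2 (adjusted p = 0.0583). As 97.1% of all genes did the same, these falls are not particular to the 3 genes. Every ICI-myocarditis library lay below every control for 4 of the 7 receptor genes (these 3 and Klrk1), and for 97.4% of all genes tested.

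Klrd1 stood at -0.99, -1.34, -0.17 and -1.53 in controls and at -0.35, -1.42 and -1.36 in ICI-myocarditis. Its ratio to the Cd3 genes overlapped fully between groups, with a change of -0.04 (limma adjusted p = 0.973) and a 95% interval from its own spread of -1.22 to 1.14. Klrc1 differed by 0.04 (own 95% interval -1.94 to 2.02, limma adjusted p = 0.967), although its empty controls make that ratio a matter of the pseudocount. Klre1 differed by -1.17 (own 95% interval -3.18 to 0.83, limma adjusted p = 0.270) and was called with a pseudocount of 5 (-2.13, limma adjusted p = 0.0244). Klrk1 was between 0.22 and 0.54 in controls and between -0.94 and -0.45 in ICI-myocarditis, so that its groups were apart. The Klrk1 difference of -0.99 did not pass with the pooled spread (SE 1.10, limma adjusted p = 0.370). It passed with its own spread (SE 0.149, 95% interval -1.38 to -0.61, limma adjusted p = 0.0107) and without control 2 (-1.01, limma adjusted p = 0.0132).

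**Figure D3:**
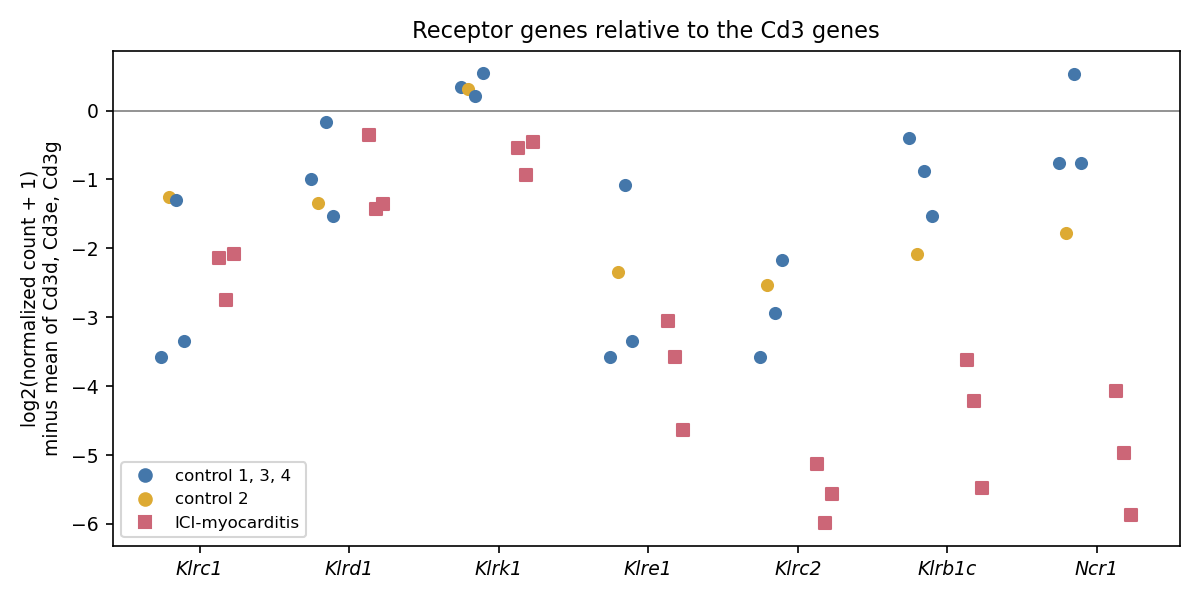
Log2 level of each tested receptor gene minus the mean log2 level of Cd3d, Cd3e and Cd3g in the same library, with controls as circles (control 2 in yellow) and ICI-myocarditis as squares. For Ncr1, Klrb1c, Klrc2 and Klrk1 the squares lie below all circles, and for Klrd1 they overlap.

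The make-up of the receptor reads differed too. The 8 genes held 33, 370, 68 and 21 reads in controls 1 to 4 and 1810, 1361 and 2160 in ICI-myocarditis. Ncr1 made up 18.2% of them in control 1 (exact binomial 95% interval 6.98 to 35.5), 9.73% in control 2 (6.91 to 13.2), 29.4% in control 3 (19.0 to 41.7) and 19.0% in control 4 (5.45 to 41.9). In ICI-myocarditis the Ncr1 share was 2.93% (2.20 to 3.81), 2.50% (1.74 to 3.47) and 1.11% (0.713 to 1.65), below every control. Klrd1 went the other way, from between 9.52% and 17.6% of receptor reads in controls to 39.2%, 30.1% and 26.7%. Klrk1 was the most abundant by reads in 5 of the 7 libraries. Its share overlapped between groups, at 23.5% to 52.4% in controls and 34.5% to 50.1% in ICI-myocarditis. Shares of 1 whole are bound to each other, so a higher Klrd1 share lowers the rest.

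**Figure D4:**
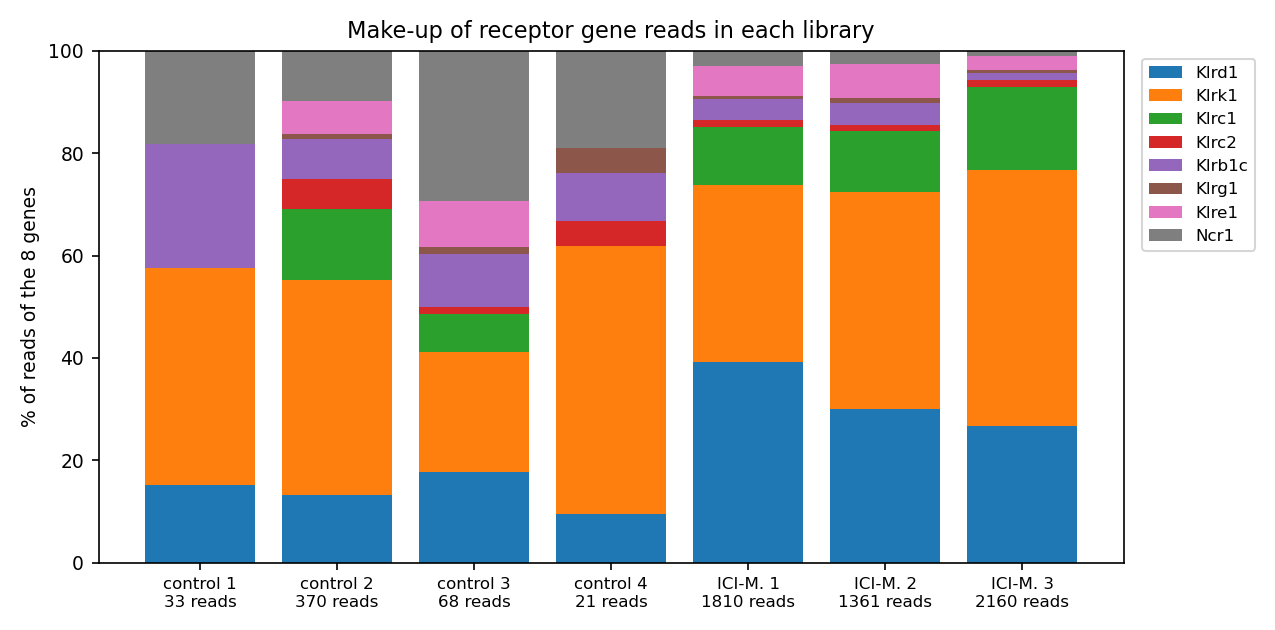
Percent of the reads of the 8 receptor genes taken by each gene in every library, with the number of reads under each bar. The Ncr1 segment spans 9.73% to 29.4% in controls and 1.11% to 2.93% in ICI-myocarditis, and controls 1, 3 and 4 rest on 21 to 68 reads.

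Levels between genes were compared per kilobase of the principal GENCODE transcript. In ICI-myocarditis, Klrd1 averaged 545 ± 244 normalized counts per kilobase (SD, n = 3), Klrk1 494 ± 162 and Klrc1 289 ± 109. Klre1 followed at 56.9 ± 26.1, then Ncr1 at 22.1 ± 13.1, Klrb1c at 17.9 ± 9.72, Klrc2 at 17.4 ± 6.46 and Klrg1 at 7.20 ± 1.09. Klrd1 and Klrk1 were closer than their spread, as were Ncr1, Klrb1c and Klrc2. Klrk1 was the most abundant in controls, at a mean of 46.6 per kilobase, followed by Klrc1 at 25.5, Klrd1 at 22.7 and Ncr1 at 13.3, with these means set mainly by control 2. Without it the order turned, with Klrk1 at 12.0, Klrd1 at 7.80, Ncr1 at 7.61 and Klrc1 at 2.72. With all annotated exons as the length, Klrd1 still led in ICI-myocarditis at 381 per kilobase, but Klrk1 fell to 87.3 and Klrc1 to 99.7. The order below Klrd1 thus depends on the transcript used.

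Genes for the ligands of these receptors, or of related NKR-P1 receptors, differed widely. Of 16 listed, 14 were in the table and 8 were tested, of which 3 were called higher and 1 lower, and the median log2 fold change was 1.31. Of all genes tested, 11.7% were called higher and 4.0% lower. The 4 calls became 2 without any single ICI-myocarditis library and 7 without control 2. H2-T23, which encodes the Qa-1 heavy chain bound by CD94 with NKG2A or NKG2C, rose from 2233 ± 1716 (SD, n = 4) to 16597 ± 2113 normalized counts (SD, n = 3), by 3.14 (SE 0.448, limma adjusted p = 0.00394). It belongs to a multigene family whose members can share reads. Of the NKG2D ligand genes, Raet1b, Raet1c and H60c were listed at 0 in all libraries, and Raet1a, Raet1d and Raet1e did not exceed 6.14 normalized counts. H60b averaged 24.7 ± 18.5 and 108 ± 50.7 (log2 fold change 2.41, limma adjusted p = 0.0537), and Ulbp1, the MULT1 gene, 97.3 ± 54.6 and 163 ± 13.3 (0.89, limma adjusted p = 0.175). Clec2d, whose product binds NKR-P1 receptors other than that of Klrb1c, rose by 1.16 (limma adjusted p = 0.0403). Among the cadherins bound by KLRG1, Cdh1 rose from 5.23 ± 4.07 to 102 ± 60.5 (4.33, limma adjusted p = 0.00861) and Cdh4 fell by 2.41 (limma adjusted p = 0.0107). Cdh2, the abundant cadherin of heart muscle, averaged 10704 ± 4910 and 6460 ± 1532 (-0.64, limma adjusted p = 0.308).

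Adaptors and signalling genes mostly rose, 13 of 16 by the test, with a median log2 fold change of 2.75 and 0 called lower. The shares over all genes tested were 11.7% higher and 4.0% lower. Hcst, for the NKG2D adaptor DAP10, had 6.05, 48.1, 11.2 and 7.51 normalized counts in controls and 185, 99.3 and 177 in ICI-myocarditis, a rise of 3.44 (SE 0.652, limma adjusted p = 0.009). Tyrobp, for DAP12, rose by 2.60 and Fcer1g, for the gamma chain that serves NKp46, by 3.10 (limma adjusted p = 0.00251 for both). Macrophages express Tyrobp and Fcer1g too, and the part of such cells in these rises was not tested. Zap70, a kinase of T and NK cells, rose by 5.27 (limma adjusted p = 0.00799). Syk rose by 0.93 (limma adjusted p = 0.0136), and Ptpn6, the phosphatase SHP-1 recruited by inhibitory receptors, by 2.91 (limma adjusted p = 0.006). Of the rest, Sh2d1b1 (3.65), Cd247 (2.38) and Vav1 (2.93) had the lowest p-values (limma adjusted p = 0.00394, 0.00424 and 0.00659). The 3 that did not pass, named after their values were seen, were Fyn, Ptpn11 and Grb2, which many cell types express.

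Among 26 other NK receptor genes, 24 were in the table and 16 were tested, of which 13 were called higher and 0 lower (median 4.37). Of all genes tested, 11.7% were called higher and 4.0% lower. Several of the 16, such as Klra3 and Klra17, passed the filter of 10 in 3 libraries only through ICI-myocarditis libraries. The share called is thus not independent of the filter. The same holds for some genes of the other lists, such as Hcst, Eomes and Cd3d. Those with the lowest p-values were Klra3 (4.75, limma adjusted p = 0.00454), Klrb1b (5.16, 0.00458) and Slamf7 (4.66, 0.00869). The 3 not called, named like Klri1 and Klri2 after their values were seen, were Klra7, Klra9 and Klrb1f. Klra9 had 21.2, 184, 69.2 and 47.5 normalized counts in controls and 48.1, 21.7 and 6.11 in ICI-myocarditis (-1.62, limma adjusted p = 0.214). Klra4, Klra6 and Klra8, further genes of the Ly49 family, were listed at 0 in all 7 libraries. Ly49 genes are near copies and vary between mouse strains, so their rows are uncertain. Without ICI-myocarditis 3, the number called in this group was 3, and without ICI-myocarditis 1 it was 8.

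Regulators and markers of NK cells were called higher for 11 of 17 tested genes and lower for 0 (median 2.59), beside 11.7% and 4.0% of all genes tested. Tbx21, for the transcription factor T-bet of type 1 lymphocytes, rose from 17.0 ± 21.2 to 249 ± 73.9 normalized counts (4.49, limma adjusted p = 0.00719). Eomes, which NK cells and effector CD8 T cells use, rose from 27.1 ± 44.4 to 169 ± 21.1 (3.85, limma adjusted p = 0.0238). Fcgr3 and Itgam, which myeloid cells also express, and Xcr1, a dendritic cell gene, rose by 2.40, 2.59 and 3.90 and had the lowest p-values (limma adjusted p = 0.00251, 0.00285 and 0.00394). Itga2, for the CD49b chain used to stain NK cells, averaged 62.7 ± 27.8 and 163 ± 64.0 and did not pass (1.38, limma adjusted p = 0.0554).

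T cell markers were called higher for 12 of 12 genes, with a median of 4.69. For this and the marker lists that follow, the shares over all genes tested were 11.7% higher and 4.0% lower. Cd3e rose by 5.61 and Cd8a by 5.43, and Cd4 by 2.89 (limma adjusted p = 0.00795, 0.00664 and 0.00317). Cd3g and Cd6 rose by 5.20 and 4.48 (limma adjusted p = 0.00407 and 0.00457). Of 7 genes set down as NK cell markers, Eomes was called, and Ncr1, Klrb1c, Itga2 and Klra9 did not pass. Klra4 and Klra8 were listed at 0, which cannot show whether they changed. The 7 overlap the lists above, where 13 of 16 and 11 of 17 genes were called higher. Of Ly49 genes outside the 7, named after their values were seen, Klra2, Klra3 and Klra17 were called higher (5.03, 4.75 and 3.43). Klra7 did not pass, and Klra1, Klra5, Klra6 and Klra10 were not tested. Of 11 listed markers of gamma-delta and innate-like T cells, 6 were in the table, 4 were tested and 0 were called. Sox13 (-0.72, adjusted p = 0.167), Blk (0.17, 0.813) and Zbtb16 (0.12, 0.876) did not pass limma's test. Sox13 and Zbtb16 had 578 to 1356 and 2206 to 7974 normalized counts in controls, where Cd3e had 6.26 to 250. The gamma-delta receptor gene Trdc was not in the table, so these rows cannot show whether such cells changed. Genes of regulatory T cells, which can carry KLRG1, were called higher for 4 of 6, with Ikzf4 at 2.24, Capg at 2.16 and Ikzf2 at 1.02 (limma adjusted p = 0.00394, 0.00407 and 0.00872). The defining gene Foxp3 (2.42, limma adjusted p = 0.0520) and Il2ra (0.51, 0.362) did not pass. Of 5 tested genes of type 2 innate lymphoid cells 1 was called, Gata3 (2.29, limma adjusted p = 0.0267), which T cells also express, while Il1rl1 (-1.05, 0.0636) and Rora (-0.17, 0.573) were not. Which cells carried the receptor transcripts was not tested.

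**Figure D5:**
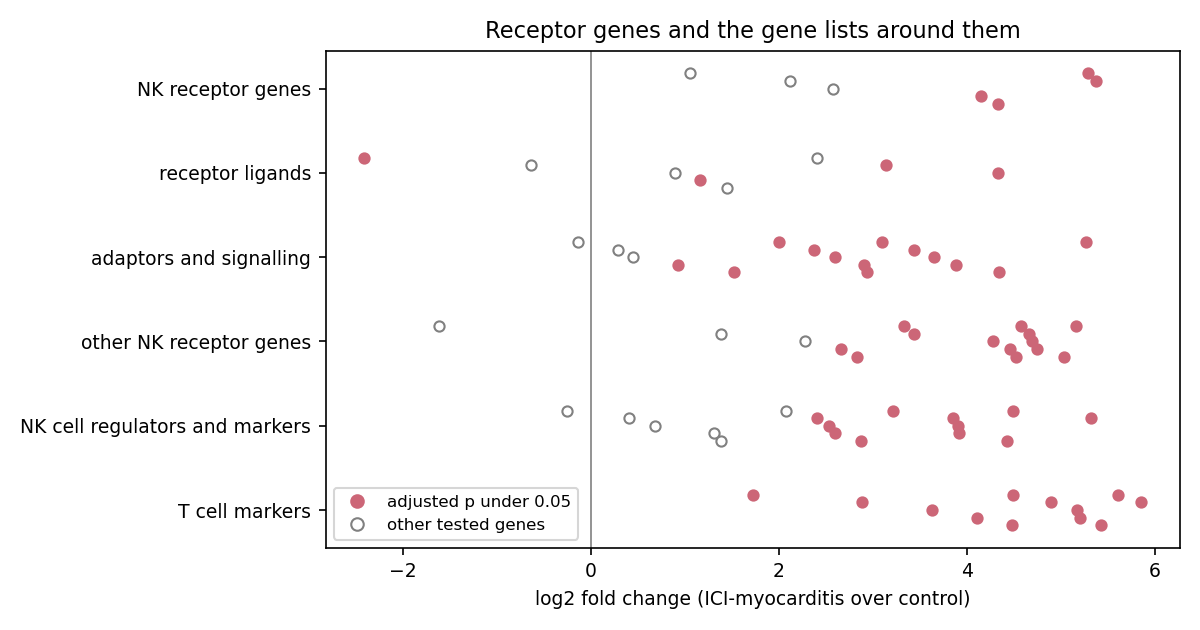
Log2 fold change (ICI-myocarditis over control) of every tested gene in the receptor set and 5 related lists, filled where limma's adjusted p was under 0.05. The called receptor genes sit between 4.15 and 5.37, and T cell markers between 1.72 and 5.85.

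For each receptor gene the tested genes with the most similar profile were found, by the root-mean-square difference between centred log2 levels over the 7 libraries. Klrd1 was nearest to Cd3d (0.324), then Bcl2a1a (0.428) and Folr4 (0.432). Klrk1 was nearest to Lck (0.171), a kinase of T cell receptor signalling, then Ptpn22 (0.276) and Fcho1 (0.290). Klre1 was nearest to Gzma (0.417), a granzyme of cytotoxic cells, then Cd96 (0.528) and Klri2 (0.537). Klrc1 was nearest to Insrr (0.448), Sirpb1a (0.480) and Klra2 (0.494). Of the scarcer genes, Klrc2 was nearest to Khdc3 (0.530), Txk (0.548) and Lax1 (0.550), and Klrb1c to Sapcd2 (0.326), Actl10 (0.356) and Zmynd10 (0.397). Ncr1 was nearest to Oas1b (0.458), Lct (0.465) and Sftpb (0.469), and Klrg1 to Hist1h3a (0.206), Hist1h2bm (0.218) and Hist1h3c (0.219). Among the 8 themselves, Klrd1 and Klrk1 were each other's nearest (0.728), as were Klrb1c and Ncr1 (0.725). All profiles share the same 7 libraries and their group difference, so nearness is a description.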

How the data were processed

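Bulk RNA-seq of 7 mouse hearts (4 control, 3 ICI-myocarditis) was used, with groups and replicate numbers from the sample titles. Per the labels' protocols, library preparation kept strand and used total RNA. The submitters' processing notes name STAR 2.7.3 and GRCm38 (mm10). The counting program, annotation and use of strand are not given in the sources used here. The deposited values of each library are a signal, gene reads divided by 1 size factor, as the steps in them show. For each gene the authors deposited their own log2 fold change, its error, a test statistic (a score) and raw and adjusted p-values, per the file headers.

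Of 23420 rows, 27 with names turned into dates (0.143% of reads) were left out. Reads were recovered by dividing a library's values by what 1 read is worth, which left 100% of values whole within 0.01. In control 1 a read is worth so nearly 1 that this shows little. The main test was limma 3.58.1 (under R 4.3.3), applied to log2(normalized count + 1) with trend and robust variance, over genes that reached 10 normalized counts in 3 or more libraries. Benjamini-Hochberg adjustment ran over all genes tested, at a threshold of 0.05. Its fold changes are on that scale, and for the receptor genes they exceeded those of edgeR and DESeq2. edgeR 4.0.16, DESeq2 1.42.0 and limma-voom on recovered reads, 2 pseudocounts, 2 filters, 2 scalings, limma without robust variance, a replicate block and leaving out each library were alternatives. A comparison with Cd8a and Cd8b1 in place of the Cd3 genes, and a fit of the Cd3 comparison with each gene's own spread, were added after seeing the data.

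The receptor genes and lists were chosen with earlier results of these data known. Genes named are all 8 receptors, direct ligands and adaptors, Eomes, Tbx21, Itga2, Cd3e, Cd8a and Cd4, the 3 with the lowest p-value in the remaining lists, and the 3 most similar profiles, passing over predicted genes. Exact intervals have 95% confidence. At 20931730 to 39037176 reads per library, counting error matters for receptor genes in controls, where several rest on 0 to 20 reads. A marker gene of these lists is not reported here.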

Additional observations from a re-analysis of the deposited data

Results flagged for a closer look

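Klrk1 in control 2 was far from the other 3 controls on the log2(normalized count + 1) scale. Its gap to the next control was 0.904 of the range of the 4 controls, above Dixon's 95% critical value for 4 samples. With 16 results examined this way (8 genes, as levels and relative to the Cd3 genes), chance alone would flag about 0.8, and 1 was found. Control 2 was the highest control for all 8 receptor genes as levels. Relative to the Cd3 genes no control was flagged.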

How the results depend on the processing

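The number of receptor genes called was 4 of 7 tested, and 2 with edgeR on recovered reads and with DESeq2. Of all genes tested, 11.7% were called higher in the main test, 10.1% with edgeR and 14.2% with DESeq2. Leaving out 1 library gave from 2 to 6, with 6 without control 2, and 2 without control 1, control 3 or any single ICI-myocarditis library. Klrd1 and Klrk1 passed in all of their 18 alternatives, Klrc1 in 11 of 18, Klre1 in 8 of 17, Klrc2 and Klrb1c in 2 of 17 each and Ncr1 in 0 of 17, with no change of direction for any of the 7. The ligand list gave 4 calls, 7 with limma-voom and from 2 to 7 when 1 library was left out (7 without control 2, 2 without any single ICI-myocarditis library). The other NK receptor list gave 13, and from 3 to 14 when 1 library was left out (3 without ICI-myocarditis 3, 8 without ICI-myocarditis 1). Over all genes 2392 were called, 3998 with limma-voom and from 983 to 3333 when 1 library was left out (983 without ICI-myocarditis 3, 1390 without ICI-myocarditis 2, 1294 without control 3, 1505 without control 1). Relative to the Cd3 genes 3 receptor genes were called, and 0 with the filter of 50 normalized counts, which leaves only 3 of them to test. There the direction of 2 genes near 0 turned. Klrd1 was at -0.04, at 0.015 with a pseudocount of 0.5 and between -0.38 and 0.24 when 1 library was left out (0.15 and 0.12 without ICI-myocarditis 2 and 3). Klrc1 was at 0.04, at -0.96 with a pseudocount of 5, at -0.27 relative to Cd8a and Cd8b1 and between -0.36 and 0.42 when 1 library was left out (-0.052 and -0.075 without ICI-myocarditis 1 and 3). The causes were not tested. Libraries with the same number did not deviate together (correlations of -0.27, -0.21 and -0.08 over genes). Correlations of libraries with different numbers ranged from -0.48 to 0.45. These values thus give no sign that the numbers pair the animals, but they cannot exclude it. With the replicate block 4 receptor genes were called between groups and 1777 of all genes, Klrc1 relative to the Cd3 genes was at -0.28, and Klrc2 relative to them no longer passed (limma adjusted p = 0.0898). Depth limits the receptor genes in controls, where Klrc1 and Klre1 had 0 reads in 2 of 4 libraries.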

Other observations

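The stretch of chromosome 6 from the first to the last killer lectin gene (chr6:128609227-131247362, GRCm38) holds other genes too. Of 26 table rows there with Klr names, 15 were tested and 10 called higher, with a median log2 fold change of 4.15. The tested Klr rows were all counted above as receptor genes or other NK receptor genes, and the calls include Klrd1, Klrk1, Klrc1 and Klre1. Several tested Klr rows passed the filter only through ICI-myocarditis libraries. Of 22 other rows, 18 were tested and 8 called higher (median 1.41). None of these was called lower in limma's test, and over all genes tested 11.7% were called higher and 4.0% lower. The called neighbours included Cd69, an activation marker of lymphocytes (4.42, limma adjusted p = 0.00555), and Clec12a, a myeloid lectin (3.87, limma adjusted p = 0.00407). Gabarapl1, an autophagy gene between them and Klre1, did not pass (-0.23, limma adjusted p = 0.536). The stretch and these 3 genes were chosen after the values were seen.

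Klra10, another Ly49 gene, was too low to be tested. It had 3.02, 16.0, 4.47 and 1.25 normalized counts in controls and 1.02, 0.725 and 0 in ICI-myocarditis. Every ICI-myocarditis library thus lay below every control in normalized counts. But control 4 and ICI-myocarditis 1 and 2 each held a single read, so their order rests on the size factors alone. Klra10 and Klrb1a were named after their values were seen. Klrb1a, also untested, was at 0 in controls 2 to 4, had a single read in control 1, and had 10.2, 10.9 and 9.17 in ICI-myocarditis.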
